A study of Mus musculus with 1 sample.

Results

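Stefins and cystatins are small proteins that bind papain-like cysteine proteases, chiefly the lysosomal cathepsins, tightly and reversibly, and so block their active site. Stefins (type 1) are short single chains that stay in the cytosol, cystatins of type 2 are secreted or carried to lysosomes, and kininogens and their relatives (type 3) circulate in plasma. Mice carry an expanded group of stefin A genes, known from neutrophils and their precursors. The 7 genes described here, of the 54532 genes in the deposited table, were chosen by name: the stefins *Stfa1*, *Stfa2*, *Stfa3*, *Stfa2l1* and *Cstb* and the cystatins *Cst3* and *Cst7*.

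The study asked how deficiency of *Gadd45g* leads to myeloproliferative neoplasm (MPN). Among other experiments, it compared the RNA of c-kit+ BM cells between *Gadd45g*+/− mice that had MPN and Ctrl mice. A single library was examined, from Ctrl mice of wild-type genotype on the C57BL/6 strain, made from bone marrow cells sorted for c-kit, a receptor of stem and progenitor cells. The labels add that the sorted cells lacked lineage markers and Sca-1. The age and number of the Ctrl mice, and whether they carried *Vav-Cre* or a floxed allele, are not given in the sources used here. There is no replicate and no second group, so no test and no fold change between conditions is given, and no likeness of pattern across samples could be measured. Levels are in FPKM, fragments scaled by exon length and by the library's total, which puts genes of different length on 1 scale within the library but understates short ones, since fragments cannot start near the end of a transcript. Ratios of genes whose call changed, or that moved by over 1.5 times, with lengths shortened for an assumed fragment of 200 bases are therefore given on both scales. Fragments recovered from the FPKM values summed to 17113323. This sum is approximate, as it includes rounded values for genes whose FPKM did not give a whole number of fragments. The FPKM worth of 1 fragment implies a smaller total, so shares of all fragments are slightly understated. The intervals printed are 95% Wilson intervals from the recovered fragments, and they cover counting error only, not the difference between mice.

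The protein family is recognised by a short loop, glutamine-x-valine-x-glycine, which enters the cleft of the protease. The bases that encode this loop, in capitals, are shown with 24 bases on either side for each of the 7 genes, read 5′ to 3′ along the coding strand from GENCODE M21 transcripts of GRCm38, to show how alike the genes are where their proteins meet the protease.
Stfa2l1: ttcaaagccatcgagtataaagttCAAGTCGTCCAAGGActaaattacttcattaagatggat
Stfa2: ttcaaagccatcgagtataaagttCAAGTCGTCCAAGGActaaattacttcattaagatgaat
Stfa3: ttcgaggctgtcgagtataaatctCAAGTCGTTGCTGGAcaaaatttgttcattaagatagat
Stfa1: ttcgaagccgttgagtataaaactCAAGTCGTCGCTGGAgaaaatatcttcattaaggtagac
Cstb: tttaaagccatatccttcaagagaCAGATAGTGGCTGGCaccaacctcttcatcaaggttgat
Cst3: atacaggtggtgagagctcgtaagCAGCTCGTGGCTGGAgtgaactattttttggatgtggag
Cst7: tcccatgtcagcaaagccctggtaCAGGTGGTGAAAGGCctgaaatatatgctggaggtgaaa

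Each of the 7 coding sequences held the loop once. Over these 63 bases *Stfa2* differed from *Stfa2l1* at 1 base, *Stfa3* at 14 and *Stfa1* at 15, whereas *Cstb* differed at 28, *Cst7* at 30 and *Cst3* at 36. The whole coding sequences of *Stfa2* and *Stfa2l1*, 309 bases each, were 96.4% identical, and *Stfa3* was 80.9% and 81.6% identical to them. The annotated coding sequence of *Stfa1* is longer, at 384 bases, and with gaps counted it was between 56.2% and 60.7% identical to the other 3. *Cst3* and *Cst7* were 47.2% identical to each other. *Stfa2* and *Stfa2l1* were thus the closest pair of the 7.

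The 7 genes lie on 3 chromosomes of GRCm38. *Stfa2l1* (ENSMUSG00000059657, forward strand, chr16:36156811-36161953), *Stfa1* (ENSMUSG00000071562, forward, chr16:36276951-36285373), *Stfa2* (ENSMUSG00000022902, reverse, chr16:36403992-36408457) and *Stfa3* (ENSMUSG00000054905, reverse, chr16:36450537-36455392) lie in 1 cluster of 299 kb. *Cstb* (ENSMUSG00000005054) is on the forward strand of chr10:78425669-78427622. *Cst3* (ENSMUSG00000027447, reverse, chr2:148871722-148875692) and *Cst7* (ENSMUSG00000068129, forward, chr2:150570415-150578944) share chromosome 2. The transcript used has 4 exons for *Cst7* and 3 for each of the other 6 genes.

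All 7 genes were detected at 1 FPKM or more, against 22.2% of all genes and 46.8% of protein-coding genes. Their median was 34.2 FPKM, and the median of the 14860 protein-coding genes above 0 was 4.22 FPKM. Together they held 0.113% of the summed FPKM, and 0.0430% of the approximate sum of fragments undivided by length. *Cst3* alone made up 56.7% of their summed FPKM. The lowest of the 7 was *Stfa2*, and *Cst3* exceeded it 40.9-fold (exact interval of the ratio, 31.0 to 55.2). The ratio was 28.0 with shortened lengths (21.2 to 37.8) and 110 in fragments undivided by length.

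*Cst3*, which encodes cystatin C, a secreted inhibitor made by most cell types, led the 7 genes with 275 FPKM (interval, 268 to 283) from 5500 recovered fragments. It ranked 137 among the 21995 protein-coding genes, next below *Eif1*, a translation initiation factor, at 278 FPKM, and next above *Sh3bgrl3* at 273 FPKM. *Stfa2l1*, a stefin A gene, followed at 113 FPKM (interval, 105 to 122) from 748 fragments. The level of *Cst3* was 2.43 times that of *Stfa2l1* (exact interval, 2.25 to 2.63), and 1.52 times with shortened lengths (1.40 to 1.64). Both genes stood apart from the other 5, since *Stfa2l1* was in turn 2.98 times *Cstb* (exact interval, 2.63 to 3.39).

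*Cstb*, which encodes stefin B, the stefin found in most tissues, had 37.9 FPKM (interval, 34.2 to 42.0) from 361 fragments. *Cst7*, which encodes cystatin F, an inhibitor of leukocytes that is carried to endosomes and lysosomes, had 34.2 FPKM (interval, 31.4 to 37.2) from 532 fragments. The levels of *Cstb* and *Cst7* could not be told apart in FPKM, with a ratio of 1.11 and an exact interval of 0.968 to 1.27. With shortened lengths the ratio was 1.32, and its interval, 1.15 to 1.51, left 1 out. In fragments undivided by length it turned the other way, at 0.679. *Cst7* was 3.48 times *Stfa1* (exact interval, 2.83 to 4.32).

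The other 3 *Stfa* genes were the lowest members. *Stfa1* had 9.82 FPKM (interval, 8.14 to 11.8) from 110 fragments, *Stfa3* 8.46 FPKM (interval, 6.50 to 11.0) from 55 fragments and *Stfa2* 6.73 FPKM (interval, 5.10 to 8.87) from 50 fragments. Neighbours in this order did not differ beyond counting error: the ratio of *Stfa1* to *Stfa3* was 1.16 (exact interval, 0.832 to 1.63) and that of *Stfa3* to *Stfa2* was 1.26 (exact interval, 0.842 to 1.88). *Stfa1* against *Stfa2* gave 1.46, and its interval, 1.04 to 2.08, left 1 out narrowly, while with shortened lengths it was 1.17 with 1 inside the interval (0.831 to 1.67). All 3 lay above the median of protein-coding genes above 0. Against the median of protein-coding genes at 1 FPKM or more, 8.66 FPKM, none of the 3 differed beyond counting error in FPKM, since their intervals all held it. With shortened lengths that median was 9.19, *Stfa1* at 13.6 (11.3 to 16.4) and *Stfa3* at 16.4 (12.6 to 21.3) lay above it, and the interval of *Stfa2*, at 11.6 (8.83 to 15.4), held it.

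**Figure D1:**
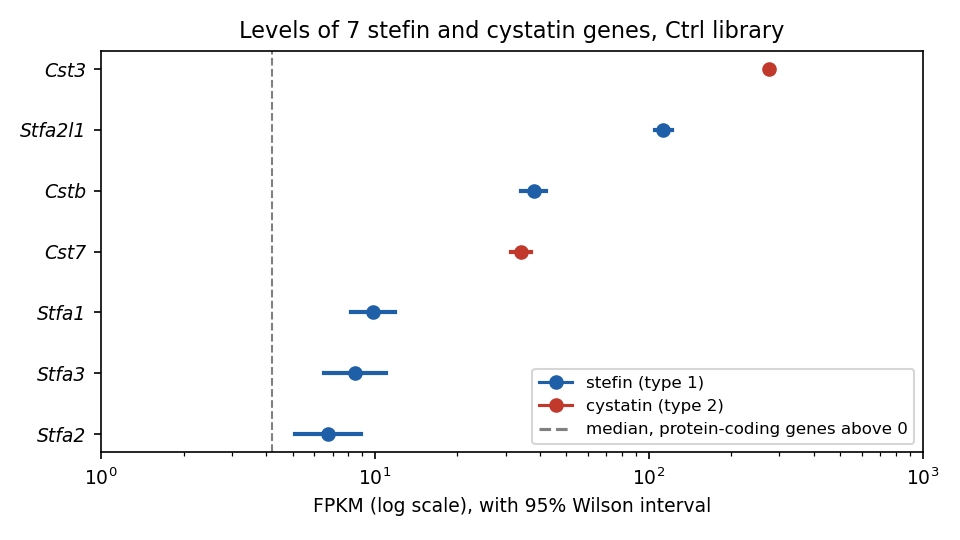
Levels of the 7 genes in the Ctrl library, in FPKM on a log scale, with points for the values and bars for 95% Wilson intervals (counting error only); blue marks stefins, red cystatins, and the dashed line the median of protein-coding genes above 0. *Cst3* at 275 FPKM and *Stfa2l1* at 113 FPKM stand apart, *Cstb* and *Cst7* overlap, and *Stfa1*, *Stfa3* and *Stfa2* overlap as neighbours.

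Among the *Stfa* genes, alike in sequence to differing degrees, *Stfa2l1* stood apart in level. *Stfa2l1* was 16.8 times *Stfa2* (exact interval, 12.6 to 22.9), the gene whose coding sequence is nearest to its own, 13.4 times *Stfa3* (exact interval, 10.2 to 17.9) and 11.5 times *Stfa1* (exact interval, 9.42 to 14.2). *Stfa2l1* held 64.3% of the summed FPKM of the 5 stefins, *Cstb* included. Since genes this alike can share reads, which counting may drop or split, the transcripts were searched for windows that occur in another gene. Of the 320 windows of 100 bases in *Stfa2l1*, none was found in another gene, and the same held for *Stfa2*, *Stfa3*, *Cstb*, *Cst3* and *Cst7*. *Stfa1* shared 36 of its 710 windows, all with *BC100530*, a neighbouring stefin-like gene. With windows of 50 bases, 75.4% of *Stfa2l1*, 77.5% of *Stfa1* and 84.1% of *Stfa2* were found in no other gene, and the other 4 genes were at 100%. With windows of 150 bases none of the 7 genes shared any. The read length of the library and the treatment of reads with several matches are not given in the sources used here. The search covers annotated transcripts and exact matches only, so the levels of *Stfa1*, *Stfa2* and *Stfa2l1* are less certain than those of the other 4 genes.

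**Figure D2:**
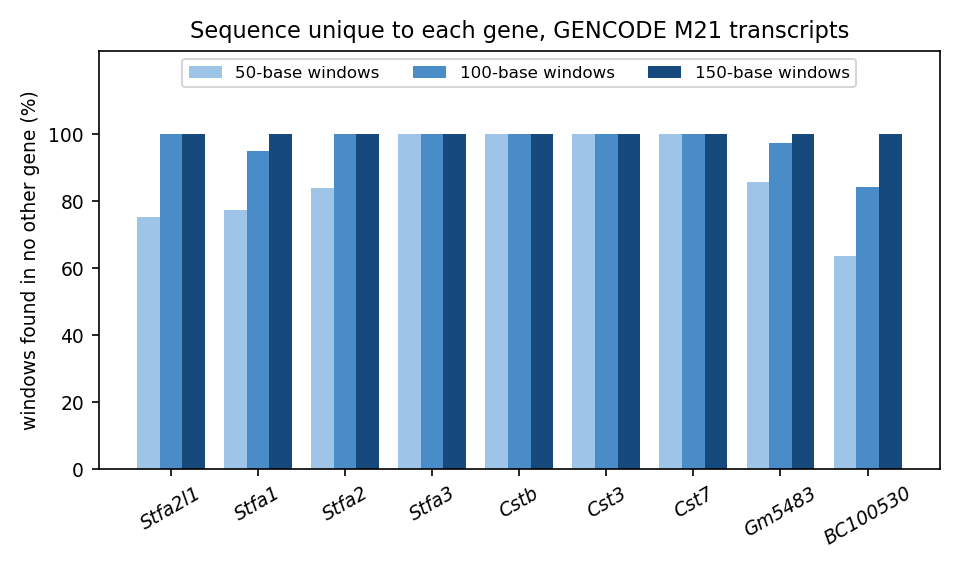
Share of windows of 50, 100 and 150 bases (bars, percent) found in no other gene of the GENCODE M21 transcripts, for the 7 genes and for *Gm5483* and *BC100530* of the stefin cluster. At 50 bases *Stfa2l1*, *Stfa1* and *Stfa2* fall below 100%, while *Stfa3*, *Cstb*, *Cst3* and *Cst7* are at 100% for all 3 windows.

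The stretches before the RefSeq starts of the *Stfa* genes are also alike. Of the 7 genes, 6 were matched by symbol in the RefSeq promoter table of GRCm38.p6, and *Cstb* was not. Over the 250 bases before the RefSeq start, *Stfa2l1* and *Stfa2* were 89.4% identical, and the other pairs of *Stfa* genes were between 79.6% and 82.6% identical. The 100 bases next to the start are printed for *Stfa2l1* (forward strand, chr16:36156711-36156810) and *Stfa3* (reverse strand, chr16:36455393-36455492), for which RefSeq and GENCODE give the same first base. Capitals mark the letters TTTAAA, an AT-rich word that reads the same on both strands and was chosen after the sequences were seen.
Stfa2l1: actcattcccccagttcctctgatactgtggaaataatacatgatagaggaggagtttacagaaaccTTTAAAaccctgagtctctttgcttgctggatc
Stfa3: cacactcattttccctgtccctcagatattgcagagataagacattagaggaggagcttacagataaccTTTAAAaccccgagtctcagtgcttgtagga

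TTTAAA began 33 bases before the RefSeq start in *Stfa2l1*, 31 in *Stfa3*, 30 in *Stfa1* and 29 in *Stfa2*. GENCODE places the first base of *Stfa1*, *Stfa2* and *Cst3* further upstream. It is 36276951 in place of 36277148 for *Stfa1*, and 36408457 in place of 36408363 for *Stfa2*. By GENCODE the word thus lies inside *Stfa1* and *Stfa2*, not before them. TTTAAA was also present in *Cst7*, 68 bases before the start, but not in *Cst3*. Of all 32851 promoters in the table, 4.39% held it in the same stretch. The match is a description of the sequence. Counted from RefSeq starts, the *Stfa* gene at 113 FPKM and the 3 below 10 FPKM had it alike.

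The cluster from *Stfa2l1* to *Stfa3* holds 9 protein-coding genes, the 4 named *Stfa* and 5 others, some of which RefSeq also names as stefin A genes (*Csta*). Of the 5 others, 3 reached 1 FPKM. *Gm5483* (ENSMUSG00000079597), which RefSeq names *Cstdc4*, a gene with a cystatin domain, had 17.3 FPKM (interval, 15.8 to 18.9). In FPKM it was 2.04 times *Stfa3* (exact interval, 1.55 to 2.75), but with shortened lengths 1.18 times, with 1 inside the interval (0.894 to 1.59). *Gm5483* was 1.76 times *Stfa1* (exact interval, 1.43 to 2.18), and 1.42 times with shortened lengths (1.15 to 1.76). Against *Stfa2* it was 2.57 times (exact interval, 1.92 to 3.51), and 1.66 times with shortened lengths (1.24 to 2.27). *BC100530* had 5.21 FPKM (interval, 4.09 to 6.64) and *Gm5416*, *Csta3* in RefSeq, had 1.08 FPKM from 5 fragments. *2010005H15Rik*, *Csta2* in RefSeq, and *BC117090* were listed at 0, where a count of 3 fragments would give 0.297 FPKM and 0.491 FPKM. With windows of 50 bases, 63.8% of *BC100530*, 66.3% of *BC117090*, 79.6% of *2010005H15Rik* and 85.8% of *Gm5483* were found in no other gene. *Gm5416* was at 100%. If reads with several matches were dropped, the levels and limits of the 4 genes below 100% would be too low. *Stfa2l1*, at 1 end of the interval because the interval was drawn from it, had the highest listed level of the 9. *Stfa2l1* held 70.0% of their summed FPKM, a share that depends on how reads with several matches were counted. Of the fragments of all annotated genes in the interval it held 48.5%. *Stfa2l1* was 6.54 times *Gm5483* (exact interval, 5.84 to 7.34), and 11.1 times with shortened lengths (9.93 to 12.5). In fragments undivided by length it was 1.47 times *Gm5483*. None of the 20 other annotated genes in the interval, 12 of them small nuclear RNA genes, reached 1 FPKM. *BC100530* overlaps an antisense gene, *Gm15845*, listed at 0, and reads of the 2 cannot be told apart unless strand was used.

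**Figure D3:**
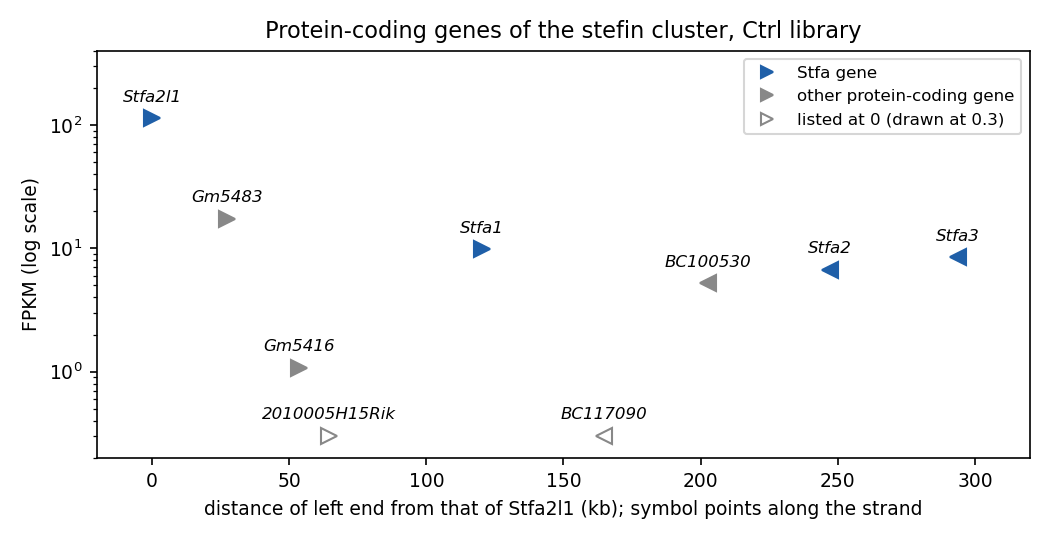
Levels of the 9 protein-coding genes of the stefin cluster, in FPKM on a log scale, against the distance in kb of each gene's left end from that of *Stfa2l1*; symbols point along the strand, filled blue for *Stfa* genes, grey for the others, open for genes listed at 0. *Stfa2l1*, at the left end, is the highest, and 2 genes are listed at 0.

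Genes of the family outside the cluster and the 7 were also examined. All 8 further type 2 genes (*Cst6*, *Cst8*, *Cst9*, *Cst10*, *Cst11*, *Cst12*, *Cst13* and *Cstl1*) were listed at 0. Of 5 type 3 genes none reached 1 FPKM: *Kng2* had 0.232 FPKM from 10 fragments and *Kng1* 0.136 FPKM from 7, and *Hrg*, *Ahsg* and *Fetub* were listed at 0. *Csta1*, a stefin A gene by its name that lies beside the cluster and was named after its value was seen, was listed at 0, which allows up to 0.0683 FPKM.

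Transcripts of 11 cysteine proteases, the class that stefins and cystatins bind, were examined. Each reached 1 FPKM, with a median of 20.6 FPKM. *Ctss* was the highest at 199 FPKM (interval, 193 to 205), followed by *Ctsb* at 145 FPKM (interval, 142 to 147) and *Ctsz* at 119 FPKM (interval, 115 to 124). These encode cathepsin S, which trims the invariant chain of MHC class II, and the lysosomal cathepsins B and Z. *Ctsh* had 50.9 FPKM, *Ctsc* 28.6 FPKM, *Lgmn*, the gene of legumain, 20.6 FPKM and *Ctsw* 12.7 FPKM. *Ctsf*, *Ctsl*, *Ctso* and *Ctsk*, the osteoclast cathepsin, lay below 10 FPKM, with *Ctsk* lowest at 1.93 FPKM. *Ctsb* shared 675 of 5902 windows of 100 bases with *Fdft1* and *Ctsl* 1544 of 6582 with *Gm47123*, so their levels are uncertain to that extent.

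Set beside its targets, *Cst3* was 1.38 times *Ctss* (exact interval, 1.33 to 1.44) and 1.90 times *Ctsb* (exact interval, 1.84 to 1.96). Undivided by length, *Cst3* had 0.398 times the fragments of *Ctsb*, whose exons span 6051 bases against 1266. *Cst7* was 1.19 times *Ctsc* (exact interval, 1.09 to 1.31), the gene of cathepsin C, which activates the serine proteases of granules and which cystatin F is known to inhibit. In fragments undivided by length the direction turned, at 0.203. The 7 inhibitors summed to 485 FPKM and the 11 proteases to 596 FPKM, a ratio of 0.814. The direction of this ratio was not stable: it was 1.22 without *Ctss* and 1.03 with shortened lengths, and 0.352 without *Cst3*. mRNA levels measure neither the amount nor the activity of the proteins.

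Of the proteases of other classes, which are not targets of stefins and cystatins, 5 were read, and their median was 251 FPKM. *Elane*, the gene of neutrophil elastase, had 781 FPKM, *Prtn3* 379 FPKM, *Ctse* 251 FPKM, *Ctsg* 241 FPKM and *Ctsd* 169 FPKM. Only *Elane* and *Prtn3* of these 5 exceeded *Cst3* in FPKM, while *Ctse* and *Ctsd* also passed it in fragments undivided by length. Among 8 inhibitors of other families, *Slpi* at 151 FPKM (interval, 145 to 156) and *Serpinb1a* at 149 FPKM (interval, 145 to 153), both inhibitors of neutrophil serine proteases, were the highest. They lay above *Stfa2l1* in FPKM, but below it with shortened lengths, at 0.841 and 0.756 times its level. *Timp2* had 25.7 FPKM, *Serpina3g* 15.9 FPKM, the calpain inhibitor *Cast* 15.1 FPKM and *Serpinb6a* 6.92 FPKM, while *Timp1* and *A2m* did not reach 1 FPKM.

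**Figure D4:**
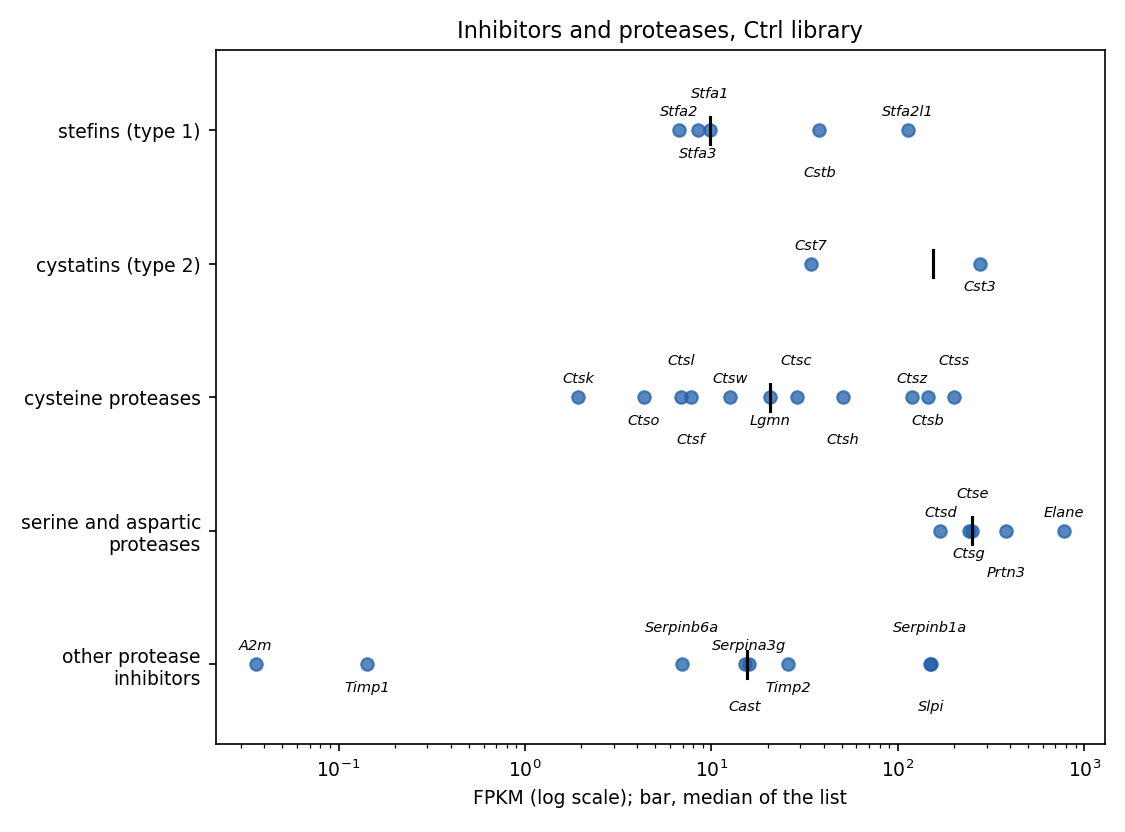
Levels of stefins, cystatins, cysteine proteases, serine and aspartic proteases and other protease inhibitors in the Ctrl library, in FPKM on a log scale, 1 point per gene with the median of each list as a bar. *Cst3* lies above all 11 cysteine proteases, and *Elane* and *Prtn3* lie above *Cst3*.

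The library was read for cell types that are known to use these genes. All 5 genes chosen for c-kit+ progenitors reached 1 FPKM, with a median of 7.91 FPKM, led by *Cebpa* at 38.1 FPKM, and *Kit* itself had 7.17 FPKM. All 4 early neutrophil genes (primary granule proteins) were detected, with a median of 407 FPKM and a sum of 1835 FPKM, led by *Elane*. All 8 late neutrophil genes were detected, with a median of 1315 FPKM and a sum of 18586 FPKM, led by *Ngp* at 8470 FPKM. The sorted cells were labelled as lacking lineage markers, yet *Ly6g*, a neutrophil surface antigen, had 194 FPKM, 1.71 times *Stfa2l1* (exact interval, 1.58 to 1.86) and 1.14 times with shortened lengths (1.05 to 1.24). The part of neutrophil RNA in the level of the *Stfa* genes was not tested, and in a bulk library fewer cells of a type and less RNA per cell cannot be told apart.

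*Cst3* is known for its high level in dendritic cells and macrophages. All 7 monocyte and macrophage genes were detected, with a median of 45.6 FPKM and a sum of 249 FPKM. Of 5 dendritic genes 4 were detected, with a median of 4.90 FPKM and a sum of 269 FPKM, of which *H2-Ab1*, also a B cell gene, made up 91.2%, and *Xcr1* had 0.142 FPKM. The part of these cells in its level was not tested.

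*Cst7* is known from natural killer (NK) cells, cytotoxic T cells and granulocytes. All 7 NK and cytotoxic T genes were detected, but with a median of 2.62 FPKM and a sum of 91.1 FPKM, of which *Nkg7* made up 77.4%. *Nkg7*, at 70.6 FPKM, was above *Cst7*, at 34.2 FPKM, and the other 6 were below it, among them *Prf1* at 1.74 FPKM, *Ncr1* at 2.55 FPKM and *Cd3e* at 2.62 FPKM. The 4 mast cell and basophil genes had a median of 17.3 FPKM and a sum of 126 FPKM, led by *Mcpt8* at 87.0 FPKM. The 4 eosinophil genes had a median of 114 FPKM and a sum of 2997 FPKM, of which *Prg2* made up 92.3%. Which of these cells the *Cst7* fragments came from was not tested.

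**Figure D5:**
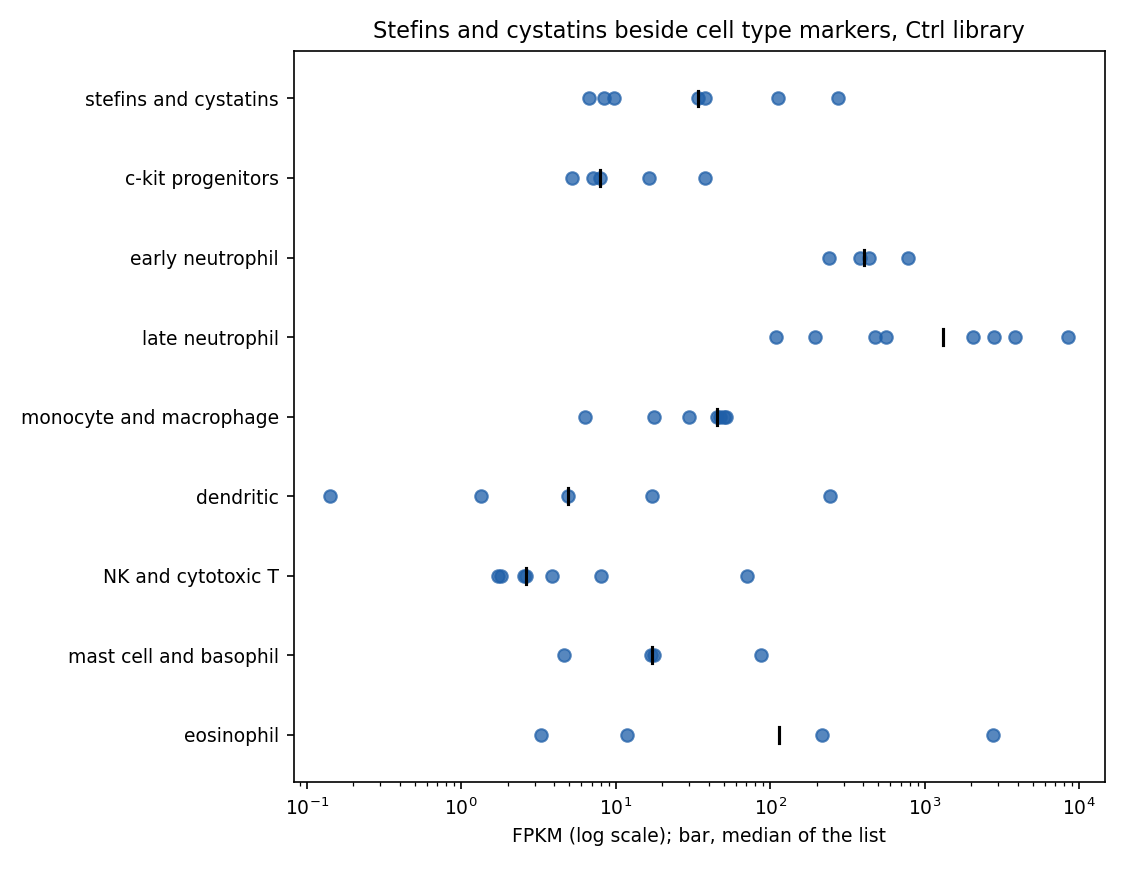
Levels of the 7 stefin and cystatin genes beside lists of cell type markers in the Ctrl library, in FPKM on a log scale, 1 point per gene with the median of each list as a bar. The late neutrophil list has the highest median, 1315 FPKM, and the NK and cytotoxic T list the lowest, 2.62 FPKM, with the stefins and cystatins between them at 34.2 FPKM.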

How the data were processed

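RNA of c-kit+ BM cells of Ctrl mice was read on the Illumina HiSeq platform. The authors deposited FPKM, 1 value for each of 54532 Ensembl genes. Per the submitters' processing notes, the tools were HISAT2 2.0.5 and featureCounts 1.5.0-p3 and the build was mm10. The annotation, the strand setting and the treatment of reads with several matches are not given in the sources used here.

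Names, coordinates and exon lengths were taken from GENCODE M21 on GRCm38 (54495 identifiers matched). FPKM times length was a whole multiple of 1 step, within 0.01, for 96.4% of genes above 0 and for 99.9% of those on chromosomes 2, 10 and 16. The multiples were read as fragments, and those that were not whole were rounded for the sum. *Ctsf* and *Ctsw* had no whole multiple and were given no interval. The recovery and the window search were tested on simulated data. Ratios have exact Clopper-Pearson intervals at 95%. A gene listed at 0 is given the limit of 3 fragments. Windows were searched for on both strands in 141767 transcripts. Coding sequences were aligned globally with Biopython 1.88, and identity counts gap columns. Promoters are from RefSeq (GRCm38.p6).

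The genes named were all 7 members, fixed lists of the family, its targets, other proteases and inhibitors and cell type markers, every protein-coding gene of the stefin cluster, and the genes next to the highest member in level. Members and lists were chosen with earlier results of these data known. Python 3.11.15, scipy 1.17.1, pandas 2.3.3, matplotlib 3.10.9 and numpy 2.4.6 were used. Alternatives were other minimums, totals, lengths, windows and a pseudocount of 1.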

Additional observations from a re-analysis of the deposited data

How the results depend on the processing

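No paired analysis was possible because a single library without a second group was at hand. With a minimum of 10 FPKM in place of 1, 4 of the 7 stefin and cystatin genes and 7 of the 11 cysteine proteases were detected. The share of all genes that reach this minimum was not counted. Of protein-coding genes, 78.6% lay below *Stfa1*, which at 9.82 FPKM was just under it. Without the 10 most abundant genes in the total, every level rose by a factor of 1.35, the same for all genes. The levels were then 13.3 FPKM for *Stfa1*, 9.08 for *Stfa2*, 11.4 for *Stfa3*, 153 for *Stfa2l1*, 51.2 for *Cstb*, 372 for *Cst3* and 46.1 for *Cst7*, which is also the median. Without mitochondrially encoded genes the factor was 1.04, and *Cst3* had 287 FPKM. The share of summed FPKM held by the 7 genes, 0.113%, was 0.153% and 0.118% under these totals and 0.0490% without *Cst3*. It was 0.0430% of the approximate sum of fragments not divided by length. The stefins' part of the 7 genes' FPKM, 36.3%, was 18.0% of fragments, 16.9% without *Stfa2l1* and 45.9% with lengths shortened for an assumed 200-base fragment, an alternative added after seeing the data. The ratio of *Cstb* to *Cst3*, 0.138, was 0.0656 in fragments and 0.173 with shortened lengths. The ratio of the 7 inhibitors to the cysteine proteases, 0.814, was 0.246 in fragments, 0.787 per unique window, 0.352 without *Cst3*, 1.22 without *Ctss* and 1.03 with shortened lengths. In fragments not divided by length, *Cst3* was 7.35 times *Stfa2l1*, 0.398 times *Ctsb*, 0.438 times *Ctse* and 0.878 times *Ctsd*, and *Cst7* was 0.203 times *Ctsc*. With shortened lengths, *Slpi* and *Serpinb1a* were below *Stfa2l1*, at 0.841 and 0.756 times its level. *Cst7* passed *Cstb* when fragments were not divided by length, and *Stfa3* passed *Stfa1* with shortened lengths. Depth limits *Stfa2* and *Stfa3*, with 50 and 55 fragments, and the spread between mice is unknown.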

Other observations

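A positional feature of the stefin cluster was noticed after the annotation was read. Of its 9 protein-coding genes, 8 are followed at their 3′ end by a small nuclear RNA gene on the opposite strand, between 59 and 133 bases away. *Stfa2l1* is followed at 61 bases, *Stfa1* at 59 and *Stfa2* at 106, and *Stfa3* is the exception, with 11790 bases to the next such gene. All 12 small nuclear RNA genes of the cluster were listed at 0. Sequence they share with other genes was not searched for and the treatment of reads with several matches is not given. The value of 0 therefore does not show that they are silent. *Stfa2l1*, *Stfa1* and *Stfa2*, from 6.73 to 113 FPKM, have this layout, and only *Stfa3*, at 8.46 FPKM, is without it. Whether layout and level are related was not tested.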
